A study of Canis lupus familiaris with 10 samples.

Results

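The transcripts described here are the cytotoxic granule and death effectors of killer lymphocytes, measured in canine cutaneous histiocytoma (CCH). They were chosen by name, as the granzymes GZMA, GZMB, GZMK and GZMH, the granule proteins GNLY, PRF1, NKG7 and CTSW, and the death ligand FASLG. Of these 9 genes, 8 are rows of the table of 800 panel genes, and GNLY was not analysed here. All 8 were among the 761 genes tested.

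CCH is a benign tumour of the dog's skin, with an origin in Langerhans cells, that commonly disappears without treatment as lymphocytes enter it. Formalin-fixed, paraffin-embedded (FFPE) tumours were excised from pet dogs, 1 tumour per dog, and their total RNA was hybridised to the colour-coded probes of the nCounter Canine IO Panel, which are counted without amplification. A total of 5 tumours fell into group 1 of the histological scheme of Cockerell and Slauson (early CCH) and 5 into group 3 (late CCH). The early dogs were 0.5 to 5.0 years old (age given for 4 of 5) and comprised 1 female, 1 male, 2 neutered males and 1 dog of unstated sex, whereas the late dogs were 1.5 to 9.0 years old and comprised 1 female, 3 males and 1 neutered male. The titles of all 5 late tumours, and of no early tumour, add that they are lymphocyte enriched. No tumour was labelled as treated or pooled. The tissue adjacent to the tumours was removed before extraction, so that each value is an average over tumour cells, lymphocytes, macrophages and stroma. Under the microscope, group 1 lacks lymphocytes and group 3 is progressively infiltrated by them, and a higher level of lymphocyte transcripts in late CCH is therefore partly given by how the tumours were grouped.

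Cytotoxic T cells and natural killer cells destroy target cells along a pair of routes. In the granule route, perforin (PRF1) forms pores through which granzymes, a family of serine proteases, enter the target and cleave proteins there. In the ligand route, Fas ligand (FASLG) on the killer cell engages FAS on the target and starts the caspase cascade.

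In late CCH, 7 of the 8 effectors were 4.24-fold to 15.5-fold higher than in early CCH at a Benjamini-Hochberg (BH) adjusted p between 0.00381 and 0.0186 in limma (n = 5 per stage). GZMA was the exception. GZMK, a granzyme of trypsin-like specificity, had the largest difference towards late CCH of the 761 tested genes. It was also the only effector that passed the stricter rule, which asked for a 2-fold difference and an adjusted p of 0.05 or less after Benjamini-Yekutieli (BY) correction. Differences are given on the log2(normalized count + 1) scale as late minus early, so that a positive value means higher in late CCH. A normalized count is the deposited value, scaled by the authors to spiked-in controls and housekeeping genes. With DV200, a measure of RNA fragment length, as a covariate, limma called 0 of the 8 past either rule. The differences were then 0.36 for GZMA (95% confidence interval -2.49 to 3.21), 1.53 for CTSW, 1.76 for PRF1 and 2.76 for GZMK, against 1.52, 2.46, 2.59 and 3.96 without it, and the other 4 lay between 1.79 and 3.16. Over all 761 tested genes that fit called 0 past BY and 2-fold and 45 past BH, against 85 and 272 without the covariate.

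The share of effectors past each threshold has to be read against the panel, in which many genes were higher in late CCH. Past the BY and 2-fold rule and higher in late CCH were 9.2% of all tested genes and 1 of 8 effectors, and higher in early CCH were 1.97% and 0 of 8. Past BH alone these were 27.3% of all tested genes and 7 of 8 effectors, with 8.41% and 0 of 8 higher in early CCH. The stages did not overlap, with every late tumour above every early tumour, for 19.2% of all tested genes and for 3 of 8 effectors, namely GZMK, NKG7 and FASLG. The median late minus early difference was 2.52 over the 8 effectors and 0.18 over all tested genes.

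The samples also differed by stage in depth and in measures of RNA and hybridisation. The total of barcode counts recovered from the normalized values was 484696 to 823763 per early tumour and 945399 to 1253083 per late tumour (two-sided exact permutation p = 0.00794, which 5 against 5 cannot undercut). The ratio of the strongest spiked-in controls was 2.09 to 2.17 in early and 2.72 to 2.84 in late CCH, and DV200, the labelled percentage of RNA fragments above a length limit, was 64.5 to 71.2 and 71.2 to 75.8. For late 5 the label, used here, differs from the DV200 in the study's sample sheet. All early tumours were run on a single nCounter cartridge and all late tumours on another, so that cartridge and stage cannot be told apart. The 5 RNA extraction batches were each confined to 1 stage. All 80 effector values lay above the background of their tumour, the mean plus 2 SD of the 8 negative probes, although GZMH in early 5 did so by a factor of only 1.07, at 20 recovered counts (exact 95% Poisson interval 12.2 to 30.9, counting error only).

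GZMK was measured at 94.2, 470, 2412, 939 and 199 normalized counts in early 1 to early 5. In late 1 to late 5 it was measured at 6533, 10705, 4839, 9249 and 5863. Every late tumour stood above every early one, and the lowest late tumour (late 3) held 2.01 times the value of the highest early tumour (early 3). The early mean of 823 ± 947 and the late mean of 7438 ± 2450 (SD, n = 5 each) differed by 3.96 on the log2 scale (SE 0.75, 95% confidence interval 2.29 to 5.62, limma BY adjusted p = 0.0275, BH adjusted p = 0.00381). The BY call was narrow. It was lost when early 2 (0.0564), early 5 (0.0802), late 1 (0.0740), late 2 (0.0810), late 4 (0.0860) or late 5 (0.0687) was left out, and the BH call held in all 10 fits that left out 1 tumour. In these fits the difference ran from 3.39 without early 1 to 4.56 without early 3.

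GZMB, which cleaves after aspartate and activates caspases in the target cell, followed another pattern. Its early values were 273, 1589, 729, 461 and 260 normalized counts, with early 2 the highest. Its late values were 5292, 4738, 613, 5420 and 5351. Of the late tumours 4 lay close together and above every early tumour, whereas late 3 fell within the early range. The means of 662 ± 552 and 4283 ± 2069 (SD, n = 5 each) differed by 2.70 (SE 0.70, 95% confidence interval 1.15 to 4.25, limma BH adjusted p = 0.0139, BY adjusted p = 0.100). Over the 10 fits that left out 1 tumour, the BY adjusted p ranged from 0.0171 without late 3, the only fit of these that passed, to 0.267 without early 5. Without late 3 the difference was 3.32. Late 3 was the lowest late tumour for all 4 granzymes, and its GZMK value was the only 1 of them above every early tumour.

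GZMH, a chymotrypsin-like granzyme, shared with GZMB the low value of late 3. Early 1 to early 5 gave 30.7, 107, 88.1, 147 and 37.9 normalized counts, and late 1 to late 5 gave 406, 479, 104, 270 and 434. Late 3 again lay within the early range and the other late tumours above it. The difference was 2.09 (SE 0.54, limma BH adjusted p = 0.0139, BY adjusted p = 0.100). Leaving out 1 tumour gave a BY adjusted p from 0.0358 (without late 3, the only pass) to 0.264 (without late 1). As GZMB and GZMH are related proteases and probe sequences were not used here, cross-hybridisation between them was not assessed.

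GZMA, a tryptase that is also abundant in resting killer cells, did not pass either threshold. It was measured at 126, 126, 1076, 575 and 53.1 normalized counts in early 1 to early 5 and at 513, 1395, 171, 1240 and 675 in late 1 to late 5. Early 3 stood above 3 of the late tumours, and late 3 below 2 of the early ones. The means of 391 ± 435 and 799 ± 510 (SD, n = 5 each) differed by 1.52 with an interval of -0.37 to 3.41 (SE 0.85, limma BH adjusted p = 0.191). A difference of the size seen for GZMH lies inside that interval.

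**Figure D1:**
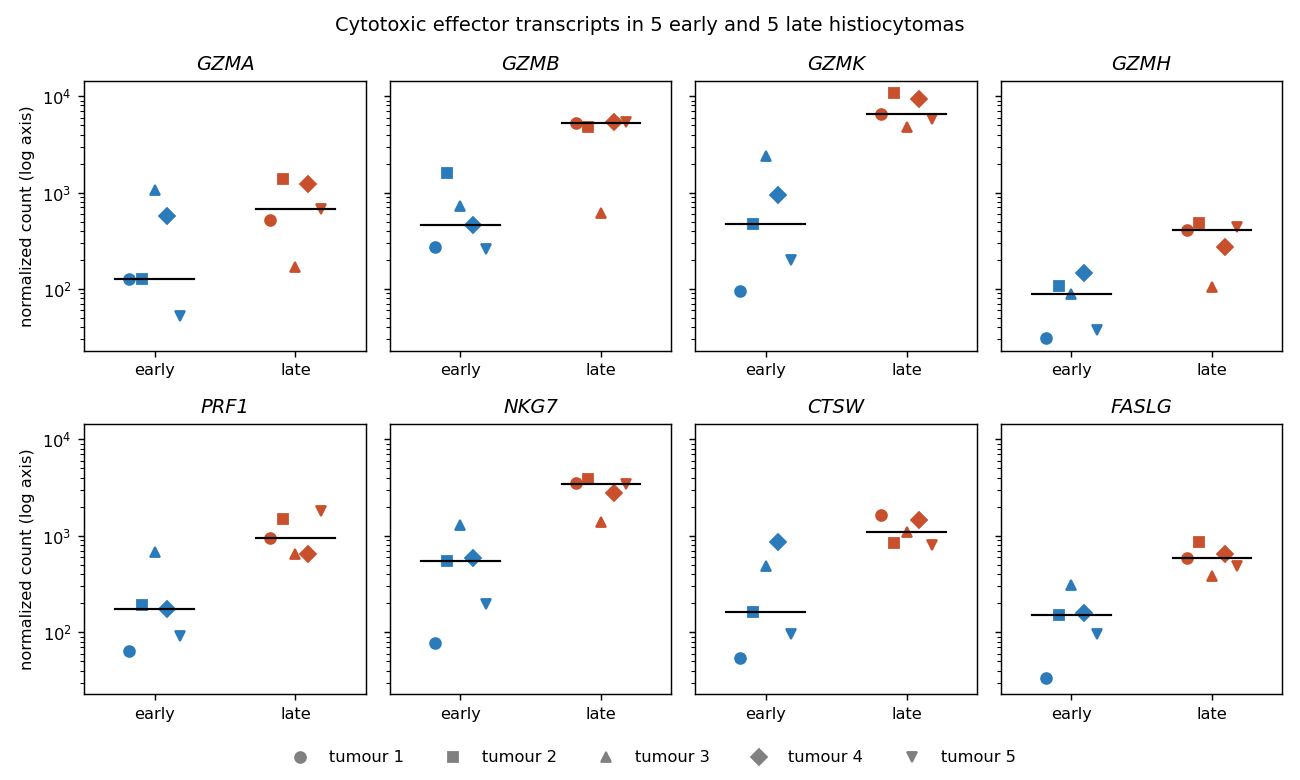
Normalized counts of the 8 effectors (log axis) in each early (blue) and late (red) tumour, with a symbol per tumour number and a line at the stage median. GZMK, NKG7 and FASLG show no overlap between stages, and late 3 (red upright triangle) lies with the early tumours for GZMB.

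PRF1, the pore-forming protein, was measured at 64.5, 190, 685, 175 and 91.0 normalized counts in early CCH and at 953, 1498, 644, 649 and 1800 in late CCH. Early 3 reached the level of the lowest late tumours (late 3 and late 4), and the other early tumours stayed at 190 or below. The difference was 2.59 (SE 0.59, limma BH adjusted p = 0.00861, BY adjusted p = 0.0621). Leaving out 1 tumour gave a BY adjusted p from 0.0116 (without early 3, the only pass) to 0.168 (without early 5).

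NKG7, a granule membrane protein of killer lymphocytes that is needed for granule release, had the second largest difference of the effectors. Its values were 77.2, 541, 1285, 593 and 197 in early CCH and 3509, 3911, 1397, 2806 and 3480 in late CCH. The stages did not overlap, but early 3 and late 3 came close to each other. The difference was 2.97 (SE 0.67, limma BH adjusted p = 0.00830, BY adjusted p = 0.0598). Leaving out 1 tumour gave a BY adjusted p from 0.0233 (without early 3, the only pass) to 0.167 (without early 5).

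CTSW, a cathepsin found in the endoplasmic reticulum of killer lymphocytes, differed from the granzymes in which tumours were high. Early 1 to early 5 gave 54.0, 161, 486, 858 and 94.7 normalized counts, and late 1 to late 5 gave 1661, 847, 1097, 1441 and 793. Early 4 lay above late 2 and late 5, so that the stages overlapped. Late 3, the lowest late tumour for the other 7 effectors, was in the middle of its stage for CTSW. The difference was 2.46 (SE 0.68, limma BH adjusted p = 0.0186, BY adjusted p = 0.134). Leaving out 1 tumour gave a BY adjusted p from 0.0401 (without early 4, the only pass) to 0.335 (without early 5).

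FASLG, the death ligand, was measured at 33.9, 149, 312, 160 and 96.6 normalized counts in early CCH. It was measured at 590, 860, 379, 650 and 487 in late CCH. The stages did not overlap, with early 3 and late 3 nearest to each other. The means of 150 ± 103 and 593 ± 182 (SD, n = 5 each) differed by 2.24 (SE 0.51, limma BH adjusted p = 0.00831, BY adjusted p = 0.0600). The BY adjusted p was 0.0243 without early 3 and 0.0499 without early 1, the 2 of 10 such fits that passed, and up to 0.166 without early 5.

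Early CCH was the more variable stage for 7 of the 8 effectors on the log2 scale. For GZMK the within-stage SD was 1.83 in early and 0.47 in late CCH, and for NKG7 it was 1.57 and 0.60. GZMB alone spread more in late CCH, with 1.09 in early and 1.38 in late tumours. Early 1 was the lowest tumour of its stage for 6 effectors and early 5 for the other 2, while early 3 was the highest for 5. Among late tumours, late 3 was the lowest for 7 of 8 effectors and late 2 the highest for 5. Summed over the effectors, normalized counts ranged from 753 to 7073 in early and from 9243 to 24433 in late CCH.

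In bulk tissue, more killer cells and more effector RNA per killer cell cannot be told apart. The T cell receptor and CD3 genes, which mark T cells, moved with the effectors. All 6 of them were higher in late CCH past BH, against 27.3% of all tested genes, with a median difference of 2.94. Their summed normalized counts were 255 to 8157 in early and 11991 to 20591 in late CCH. Their mean on the log2 scale was 4.89, 7.75, 9.46, 9.08 and 6.65 in early 1 to early 5 and 10.1 to 10.6 over the late tumours. Early 1 and early 5 were lowest, and early 3 and early 4 highest, of their stage both for this mean and for the mean log2 level of the 8 effectors.

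Each effector was therefore also set against the mean log2 level of these 6 genes in the same tumour. On this relative scale limma, which moderates variances across genes, called 0 of 8 effectors past BH (1, GZMK, without moderation). In the moderated fit 0 had an unadjusted p under 0.05. Of all tested genes 75.7% were called, every one of them lower relative to the T cell genes in late CCH, and 0% were called higher. These calls over all genes depended on the fit, since 0 of 761 were called with the extraction batch as a random block and 1 with DV200 as a covariate. The relative differences were 0.14 for NKG7 (95% confidence interval -1.31 to 1.58), -0.13 for GZMB (-1.89 to 1.63), -0.25 for PRF1 (-1.75 to 1.26) and -0.38 for CTSW (-1.80 to 1.05). They were -0.59 for FASLG, -0.75 for GZMH and -1.31 for GZMA (-2.93 to 0.30). These moderated intervals are wide and include changes of 2-fold in at least 1 direction, so that equal levels per T cell transcript are not shown. With variances not moderated across genes, the SE was 0.32 for NKG7, 0.33 for CTSW, 0.40 for FASLG and 0.54 for PRF1. It was 0.62 for GZMH, 0.73 for GZMA and 0.89 for GZMB, against 0.69 to 0.85 with moderation. The unmoderated interval was -0.60 to 0.87 for NKG7 and -2.19 to 1.93 for GZMB.

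GZMK was the effector with the largest positive difference on this scale. Its relative level was 0.80 to 1.78 in early and 2.12 to 3.04 in late tumours, without overlap. The difference was 1.13 (SE 0.70, 95% confidence interval -0.33 to 2.58), with a limma BH adjusted p = 0.146. Without the moderation of variances across genes the SE was 0.27 and the BH adjusted p 0.0228, and without early 1 the moderated BH adjusted p was 0.0341. The exact two-sided permutation p for GZMK alone was 0.00794, the smallest possible, whereas it ranged from 0.111 to 0.889 for the other 7 effectors (8 tests, unadjusted). In early 1, CD3D and CD247 were at 19.0 and 8.46 normalized counts, below the background of 21.8, and CD247 was also below background in early 2 and early 5, so that the T cell level of these tumours is uncertain. With all values raised to the highest background the GZMK difference was 1.35 (limma BH adjusted p = 0.0547). With the mean of CD8A and CD8B in place of the T cell receptor genes, a choice made after the data were seen, limma again called 0 effectors and the GZMK difference was 1.05.

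**Figure D2:**
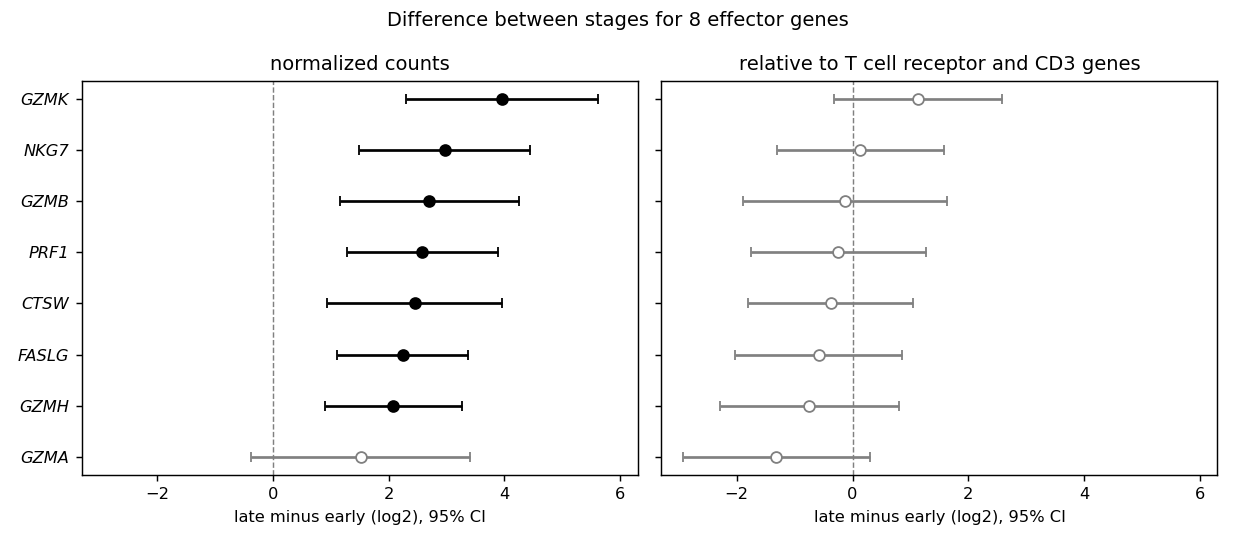
Late minus early difference on the log2 scale with its 95% confidence interval (limma, 5 tumours per stage) for normalized counts (left) and relative to the mean of 6 T cell receptor and CD3 genes (right). Filled black points passed BH and open grey points did not, so that 7 of 8 pass on the left and 0 on the right.

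**Figure D3:**
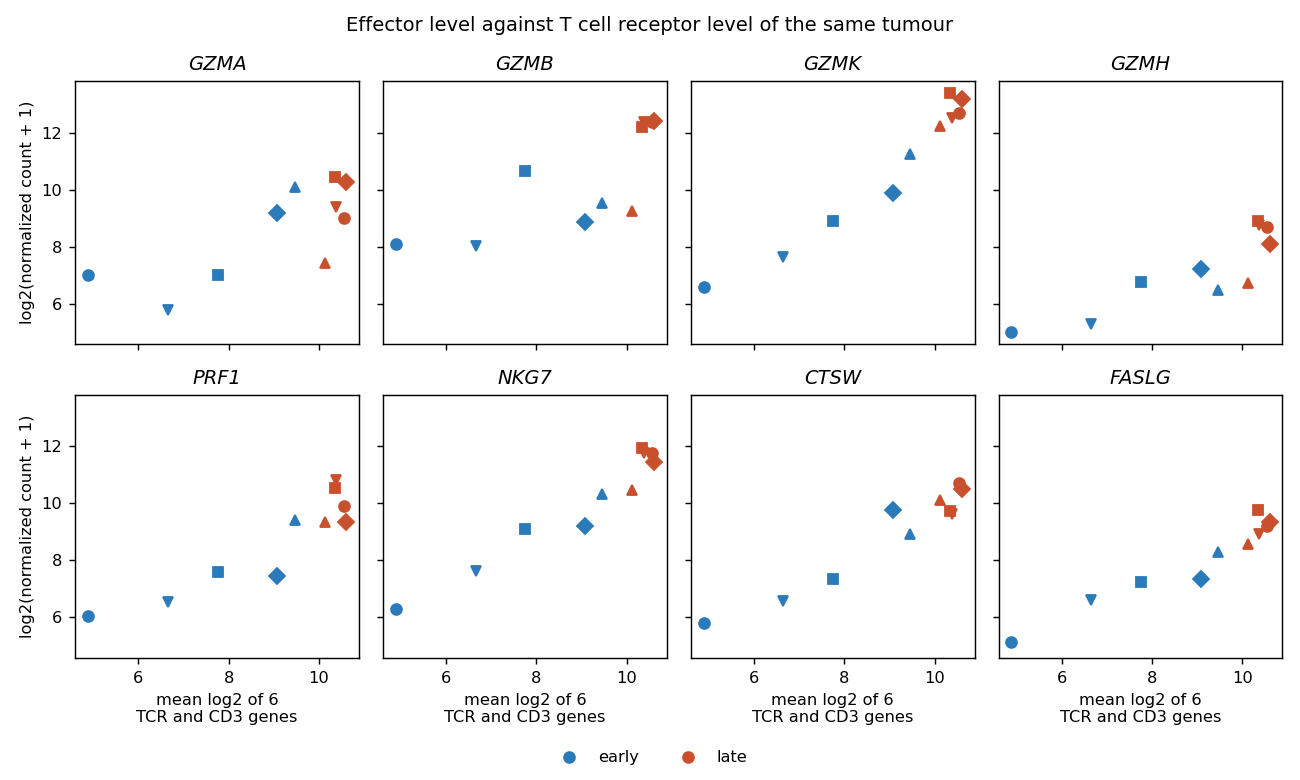
Level of each effector, as log2(normalized count + 1), against the mean log2 level of 6 T cell receptor and CD3 genes in the same early (blue) and late (red) tumour, with symbol shapes as tumour numbers. Early tumours with a higher T cell level had a higher GZMK level, while GZMB in early 1 (blue circle) and early 2 (blue square) lies high, and in late 3 (red upright triangle) low, for its T cell level.

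The make-up of the granzymes differed between tumours. As each gene has its own probe, a ratio between genes has no absolute meaning and is compared here only between tumours, where the scaling of a sample cancels. GZMA over GZMK was 1.34, 0.267, 0.446, 0.612 and 0.267 in early 1 to early 5. In late CCH it was 0.0786, 0.130, 0.0352, 0.134 and 0.115. The ratio was lower in every late tumour than in every early tumour.

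GZMB over GZMK was 2.90, 3.38, 0.302, 0.491 and 1.30 in early CCH and 0.810, 0.443, 0.127, 0.586 and 0.913 in late CCH. Early 1, early 2 and early 5 stood above all late tumours, and early 3 and early 4 lay within the late range. GZMB over GZMH ranged from 3.15 to 14.9 in early and from 5.92 to 20.1 in late CCH and overlapped. The ratios were picked after the values were seen and were not tested.

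**Figure D4:**
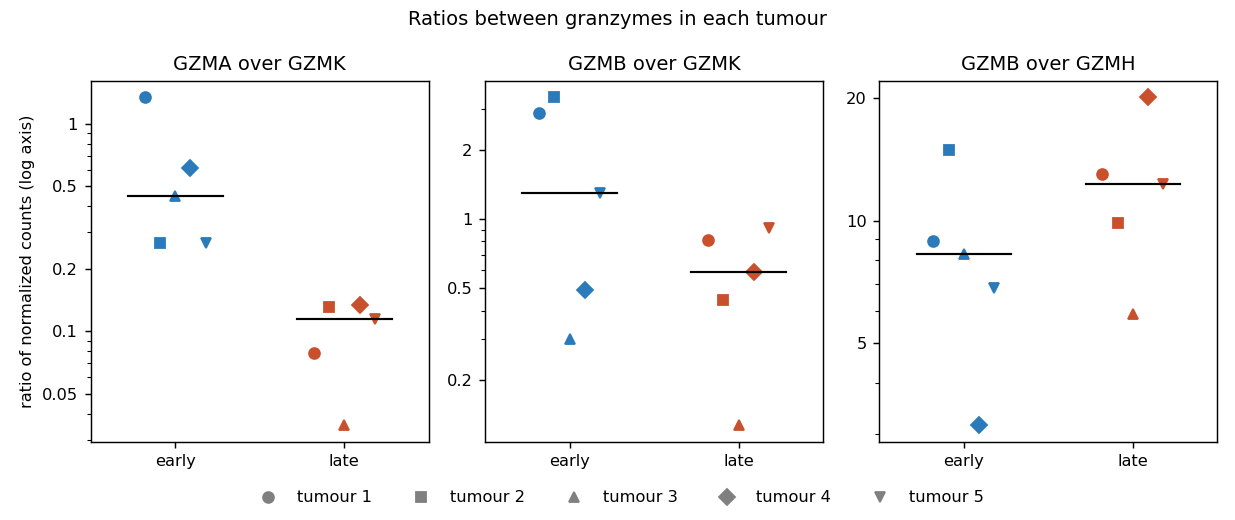
Ratios of normalized counts between granzymes (log axes, each panel with its own scale) in each early (blue) and late (red) tumour, with symbols by tumour number and a line at the stage median. GZMA over GZMK lies at 0.267 or above in early and at 0.134 or below in late tumours.

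Most effectors varied together from tumour to tumour, CTSW in late CCH excepted. After the mean of each stage was removed, Pearson's r of log2 values over the 10 tumours was above 0.5 for 26 of the 28 effector pairs (92.9%) and for 14.9% of all pairs of tested genes. The median r was 0.70 and 0.073. The points share their libraries, the normalization and the amount of infiltrate, and no test is attached. NKG7 with FASLG (0.96) and GZMK with FASLG (0.95) were the closest pairs. GZMB with CTSW (0.23) and GZMB with GZMK (0.45) were the most distant. The early tumours, which spread more, weigh more in these values. Within the 5 late tumours alone r was between -0.71 (with PRF1) and 0.064 (with GZMB) for the 7 pairs with CTSW, and between 0.18 and 1.00 for the other 21 pairs.

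**Figure D5:**
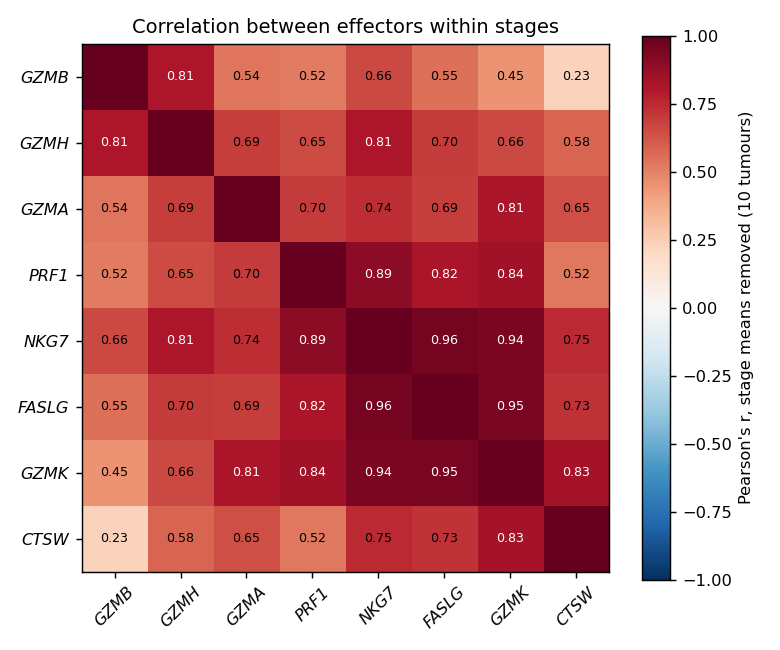
Pearson's r between effectors over 10 tumours after the mean of each stage was removed from log2 values (colour scale -1 to 1). NKG7, FASLG and GZMK form the closest group, up to 0.96, and GZMB with CTSW is lowest at 0.23.

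The panel genes most alike to each effector by the same measure differed between effectors. For GZMK they were BST2 (0.98), IFIH1 (0.97) and ITGAL (0.97). BST2 and IFIH1 are interferon-inducible genes, and ITGAL is an integrin of leukocytes. For NKG7 they were PSMB10 (0.98), CD8A (0.96) and FASLG (0.96), and for FASLG they were PSMB10 (0.97), BST2 (0.96) and NKG7 (0.96). PSMB10 is a subunit of the immunoproteasome.

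For CTSW they included CD5 (0.98), a T cell gene, and MAP4K2 (0.95). For GZMA they were SLAMF7 (0.89), CD2 (0.88) and CD244 (0.86), all receptors of lymphocytes. For PRF1 they were CD70 (0.91), CCL4 (0.90) and NKG7 (0.89). For GZMB they were CTSS (0.90), LAP3 (0.90) and MARCO (0.88), and for GZMH LAP3 (0.87), CXCR3 (0.87) and NOS2 (0.83). CTSS, a lysosomal protease, and MARCO, a scavenger receptor, are known from myeloid cells. These genes are the highest of all tested for each effector and were selected as such.

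Receptors and adaptors of killer lymphocytes were mixed. Of 15 tested, 7 were higher in late CCH past BH and 1 was lower, against 27.3% and 8.41% of all tested genes. Past BY and 2-fold these were 3 and 1, against 9.2% and 1.97%. SLAMF7 differed by 2.13, KLRK1, which encodes the activating receptor NKG2D, by 1.80 and NCR1, which encodes NKp46, by 1.71. SH2D1A, an adaptor of SLAM receptors, had the highest difference of the list (3.05, limma BH adjusted p = 0.00808). TYROBP, an adaptor that myeloid cells also use, fell by 1.45 on the log2 scale. Under scaling to the geometric mean, the counts past BH for this list were 6 higher and 4 lower. That scaling called 345 of 761 genes past BH in either direction, against 272 with the deposited scaling. It moved the median of all tested genes from 0.18 to -0.21.

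Among 4 natural killer cell markers, all of them also in the list above, NCR1 and KLRD1 were higher past BH (1.71 and 2.45), whereas NCR3 and KLRF1 had differences of -0.20 and -0.11 and did not pass. Their summed normalized counts were 113 to 428 in early and 393 to 1762 in late CCH. NCR1 exceeded background in 1 of 5 early and 5 of 5 late tumours, so that the size of its difference is uncertain. The part of natural killer cells in the effector differences was not tested.

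Of the coreceptors, CD4, CD8A and CD8B all passed BH with differences of 2.86, 3.09 and 2.72, and CD4 passed BY and 2-fold too. CD8A marks most cytotoxic T cells, and its normalized count was 34.9 to 1254 in early and 1384 to 4520 in late CCH. Of 6 transcription factors of killer lymphocytes, 4 were higher past BH, and for both lists this compares with 27.3% of all tested genes. EOMES had the largest difference (3.32, limma BY adjusted p = 0.0297), TBX21, a related factor named here after its value was seen, gave 0.67 (limma BH adjusted p = 0.135), and TOX gave 0.05.

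Of 16 cytokines and receptor chains that act on killer lymphocytes, 5 were higher past BH and 0 lower, a share near the 27.3% of all tested genes. IL21R (2.33) and IL2RG (2.22), the latter encoding the shared chain of several interleukin receptors, passed BY and 2-fold. IL12RB2 had the lowest value of the list at -0.50 and did not pass.

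The death ligands other than FASLG did not pass the test. The differences were 0.52 for TNF and 1.68 for LTA (limma BH adjusted p = 0.293 and 0.0911), and 0 of 3 were called. LTA was low, at 1.06 to 44.1 normalized counts in early and 34.3 to 72.3 in late CCH. It exceeded background in 1 of 5 early and 5 of 5 late tumours. Under quantile normalization LTA was higher past BH.

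On the receiving side, 3 of 10 death receptor and apoptosis genes were higher in late CCH past BH and 2 were lower. The former is near the 27.3% of all tested genes, and the latter stands beside 8.41%. FAS, the receptor of FASLG, was at 477 ± 80.5 in early CCH and at 846 ± 101 in late CCH (SD, n = 5 each), a difference of 0.83 (limma BH adjusted p = 0.00422). BCL2L1, an inhibitor of apoptosis, had the lowest difference of the list (-0.87). FAS is named here after its value was seen. Under scaling to the geometric mean, 2 of these 10 genes were higher and 4 lower, and the median of the list moved from 0.10 to -0.29. The median of all tested genes moved likewise, from 0.18 to -0.21, and 345 of 761 genes passed BH in either direction, against 272.

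Of 3 genes of the granule compartment, 1 was higher past BH, a share near the 27.3% of all tested genes. It was CD63 (0.71), a lysosomal membrane protein found in many cell types, and LAMP1 gave 0.48 without passing. Under geometric mean and sum scaling 0 of these 3 passed.

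Other cell types were followed with marker lists. Of 8 B cell markers 6 were higher in late CCH past BH, against 27.3% of all tested genes. CD79A led the list (2.61), and CD22 gave -0.17. CD79B exceeded background in 0 of 5 early tumours and MS4A1 and BLK in 1 of 5 each, so that the sizes of their differences are uncertain. Under geometric mean and sum scaling 4 of the 8 were higher past BH, and under quantile normalization 5. The summed normalized counts of the 8 markers were 1457 to 2191 in early and 1702 to 8855 in late CCH. Of 7 macrophage markers 2 were higher past BH, CD68 (1.29) and MSR1 (1.67), a share near the 27.3% of all tested genes. MRC1 was the lowest of the list without passing. Under geometric mean, sum and quantile scaling CD68 alone was higher past BH, and MRC1 was lower past BH. These fits called 345, 317 and 322 of 761 genes past BH in either direction. The sums of the 7 markers were 2338 to 6181 in early and 3338 to 7030 in late CCH.

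Langerhans and dendritic cell markers had 2 of 9 genes higher and 2 lower past BH, against 27.3% and 8.41% of all tested genes. FLT3 (-2.49) and FCER1A (-2.44) were lower past BY and 2-fold, and XCR1 was the highest of the list (1.60). CD207, the defining transcript of Langerhans cells, exceeded background in 1 early and 1 late tumour only, so that it gave no check of the Langerhans origin of the tumour cells. The sums of the list were 2151 to 6894 in early and 2445 to 4478 in late CCH.

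Mast cells also hold granule proteases. Of 5 mast cell markers 0 were higher and 2 lower past BH, against 27.3% and 8.41% of all tested genes. CPA3 was lowest (-1.38) and CTSG highest (0.76), and the sums of the 5 were 337 to 1527 in early and 428 to 739 in late CCH. LTF (2.31) was the only 1 of 8 neutrophil markers past BH, S100A9 was the lowest at -1.87, and the sums were 1395 to 38002 and 1245 to 35913. CDH5 was the only 1 of 7 stromal and endothelial markers past BH, though above background in only 2 of 5 early tumours, with PECAM1 lowest at -0.05. Of 4 keratinocyte markers (TP63 -0.56 to KRT7 0.73) and 5 cell cycle genes (BIRC5 -0.63 to MKI67 0.0029) none passed BH. Under geometric mean, sum and quantile scaling TP63 and BIRC5 were each lower past BH. Each marker of the cell type lists exceeded background in at least 1 tumour, and the part of these cell types in the effector differences was not tested.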

How the data were processed

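RNA of 10 FFPE tumours (5 early, 5 late) was measured by the authors on the nCounter Canine IO Panel. The authors normalized counts in nSolver to positive controls and then to housekeeping genes, and the deposited values are this normalized signal on a linear scale. The deposited columns of all 10 samples were used. Each value divided by the worth of 1 barcode count was whole within 0.0051 for at least 99.4% of genes per tumour, and these recovered counts served for depth, background and counting intervals, not for tests between stages of the effectors.

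Differences were tested on log2(normalized count + 1) with limma 3.58.1 in R 4.3.3 (lmFit, eBayes with intensity trend) across the 761 of 800 genes with a mean of at least 20, without covariates. On this scale the change of low genes is understated. The study's methods name late CCH as baseline, and the sign is turned here. The thresholds, BY with 2-fold, follow the study, but its own test in the nSolver Advanced Analysis plug-in was not used, so that calls can differ between the tests. BH at 0.05 was added. All p-values were adjusted over the 761 genes.

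The fit was tested on simulated data with known changes before use.

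The effectors and the other lists were chosen with earlier results of these data known. Named genes are every effector, the highest, lowest and BY-called genes of each other list, and the 3 most correlated genes per effector, less some genes that are not reported here. CD3D, CD247, KLRD1, NCR3, KLRF1, TBX21, FAS, CD8A, CD8B and CD207 were named for other reasons, as coreceptors, cell type markers or after their values were seen. Symbols are those of the table, and 7 of 8 effectors (not GZMH) matched a symbol in RefSeq's table for assembly UU_Cfam_GSD_1.0. Per the study's methods the probes were designed on CanFam3.1, another assembly, so no coordinates are printed. Alternatives covered the pseudocount, filter, background floor, scaling, trend, array weights, DV200, replicate block, extraction batch and leaving out each tumour. After the data were seen, the CD8 denominator and an unmoderated fit were added. Figures were drawn with matplotlib 3.10.9.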

Additional observations from a re-analysis of the deposited data

Results flagged for a closer look

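Of 44 groups of 5 values checked, 3 (6.82%) held a tumour far from the others by Dixon's criterion. Chance gives about 5.0% for independent groups of normal values, and these groups share tumours, so that this rate is only a guide. Normalized counts of GZMB and PRF1 were checked on the linear scale, not as log2 values, and a flag can depend on that choice.

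GZMB in late 3 was 613.12 normalized counts, against 4738 to 5420 in the other late tumours. The gap to the nearest tumour was 0.858 of the range of the group.

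GZMB in late 3 also stood apart relative to the T cell receptor and CD3 genes of the same tumour, at -0.86 on the log2 scale against 1.81 to 2.01 in the other late tumours (gap over range 0.928). Both rest on the same GZMB measurement.

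PRF1 in early 3 was 684.76 normalized counts, against 64.5 to 190 in the other early tumours (gap over range 0.798).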

How the results depend on the processing

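The number of effectors past BY and 2-fold, 1 in the reported analysis, depended on the setting. It was 5 with array weights, 4 with the extraction batch as a random block (estimated correlation -0.14, with every batch within 1 stage), and 0 with DV200 as covariate, with the replicate block or without moderation. Leaving out a tumour gave 0 to 4, with 4 without early 3, 3 without late 3, 2 without early 1 or early 4, and 0 without early 2, early 5, late 1, late 2, late 4 or late 5. The number past BH stayed at 7 in every setting, leaving out each tumour included, except with DV200, where it was 0. With DV200 all 8 differences were positive, 5 had an unadjusted limma p under 0.05, the lowest BH adjusted p was 0.117, and the GZMK difference was 2.76. Of all 761 genes 0 passed BY and 2-fold and 45 passed BH in that fit. The cause was not tested. DV200 barely overlapped between stages. Relative to the T cell receptor genes, the number past BH, 0 as reported, was 4 with array weights (GZMK higher at 1.31, FASLG at -0.67, GZMB at -1.30 and GZMH at -1.01 lower), whose estimation gave a convergence warning and under which 725 of 761 genes were called, 1 without moderation and 0 to 1 leaving out a tumour (1 without early 1).

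The sign of 5 relative differences changed under some settings. CTSW was 0.097 with array weights. GZMB was 0.0027 with a pseudocount of 10, 0.092 with the background floor, 1.21 with DV200, 0.12 with the extraction batch and -0.55 to 0.42 leaving out a tumour. GZMH was 0.032 with DV200. NKG7 was -0.0012 with quantile normalization, -0.15 with array weights and -0.066 to 0.32 leaving out a tumour, and PRF1 was -0.61 to 0.081 leaving out a tumour.

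Scaling to the geometric mean moved the median of all tested genes from 0.18 to -0.21, and the effectors then differed by 1.13 (GZMA) to 3.57 (GZMK).

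Replicate numbers only name the tumours, since same-numbered tumours of the stages came from different dogs and correlated at -0.20 to 0.16 after stage means were removed, with 1 of 5 best matched to its own number. With the replicate block 0 effectors passed BY and 2-fold and 7 passed BH, against 1 and 228 of all 761 genes.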
